A study of Mus musculus with 2 samples.

Results

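The lysosomal genes that cut protein antigens for MHC class II presentation, 10 in number, were followed in medullary thymic epithelial cells (mTECs). They were taken from the gene table by symbol, and all 10 were found among 23997 rows. They are the cysteine proteases Ctsl, Ctss, Ctsb, Lgmn, Ctsh, Ctsz and Ctsc, the aspartic proteases Ctsd and Ctse, and Ifi30. Ifi30 encodes a thiol reductase and not a protease, so the set is wider than lysosomal proteases in the strict sense.

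The cells were mTECs with high surface MHC class II, sorted from thymi of C57BL/6 mice. There were 2 libraries, 1 from Aire-/- mice (labelled Aire-KO) and 1 from WT mice, each made from polyadenylated RNA of pooled animals. The sources used here do not give the allele, nor the number, age or sex of the mice. Since each genotype has 1 library, there is no replicate check and no test of genotype, and every difference below is one between 2 libraries.

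Class II molecules are loaded in acidic late endosomes and lysosomes. There the invariant chain, which guards the peptide groove, is cut down in steps, and endopeptidases and exopeptidases trim self proteins into peptides. In mouse thymus cathepsin L does the late steps of invariant chain cleavage in cortical epithelium, whereas cathepsin S does so in dendritic cells and B cells. mTECs use the same pathway to show self antigens to developing T cells, and Aire is the transcriptional regulator that widens the range of antigens they make.

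Levels are given in fragments per kilobase of transcript and per library size (FPKM), which is per length, so that genes can be compared within a library. Ratios are log2 of FPKM + 0.1, Aire-KO over WT. A gene was called lower or higher in the Aire-KO-labelled library at a 2-fold ratio if its mean was 0.5 FPKM or more. This rule sets a size and tests nothing. Depth was about 55000000 fragments in the Aire-KO-labelled library and 47900000 in the WT-labelled library, as estimated from steps in low values. Aire itself stood at 640.2 FPKM in the Aire-KO-labelled library, against 220.6 FPKM in the WT-labelled library. A gene-level FPKM does not isolate a deleted part, so the label is not checked by it, and both libraries are called by their labels throughout. The mTEC markers were present in both libraries, with Krt18 at 1990 FPKM in the Aire-KO-labelled library and 1679 FPKM in the WT-labelled library, and Fezf2 at 261.3 FPKM in the Aire-KO-labelled library and 209.5 FPKM in the WT-labelled library. Of 14 mTEC markers 13 were in the table and measured, with summed levels of 6415 FPKM in the Aire-KO-labelled library and 5574 FPKM in the WT-labelled library. Aire is itself part of that sum. Of the 13, 8 had ratios above 0 and 5 below, the lowest being Cldn4 at a log2 ratio of -0.91. Psmb11, which defines cortical epithelium, stood at 1.52 FPKM in the Aire-KO-labelled library and 2.05 FPKM in the WT-labelled library. It does not stand for the whole cortical list of 9 markers, of which 4 had ratios above 0 and 5 below. The most expressed of them were Tbata (1045 FPKM in the Aire-KO-labelled library, 589.1 FPKM in the WT-labelled library) and Ccl25 (809.2 FPKM in the Aire-KO-labelled library, 546.4 FPKM in the WT-labelled library).

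Of the 10 genes, all of which passed the minimum, 1 was lower, none higher and 9 neither. Of all 15906 measured genes, 20.5% were lower, 7.09% were higher and 72.4% were neither, so the count of lower members is not above the background. The median log2 ratio of the 10 was -0.19, against 0.05 for all measured genes. It was 0.19 for the 1922 genes averaging at least 50 FPKM, a level that all members but Lgmn and Ctse reached. The call fell on Ctsd, whereas Ctsh, Ctss and Ifi30 had the highest ratios of the set and lay below the 2-fold limit. Ctsl and Ctsz had ratios near 0. Summed over the 10 genes, the level was 2235 FPKM in the Aire-KO-labelled library and 1868 FPKM in the WT-labelled library.

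**Figure D1:**
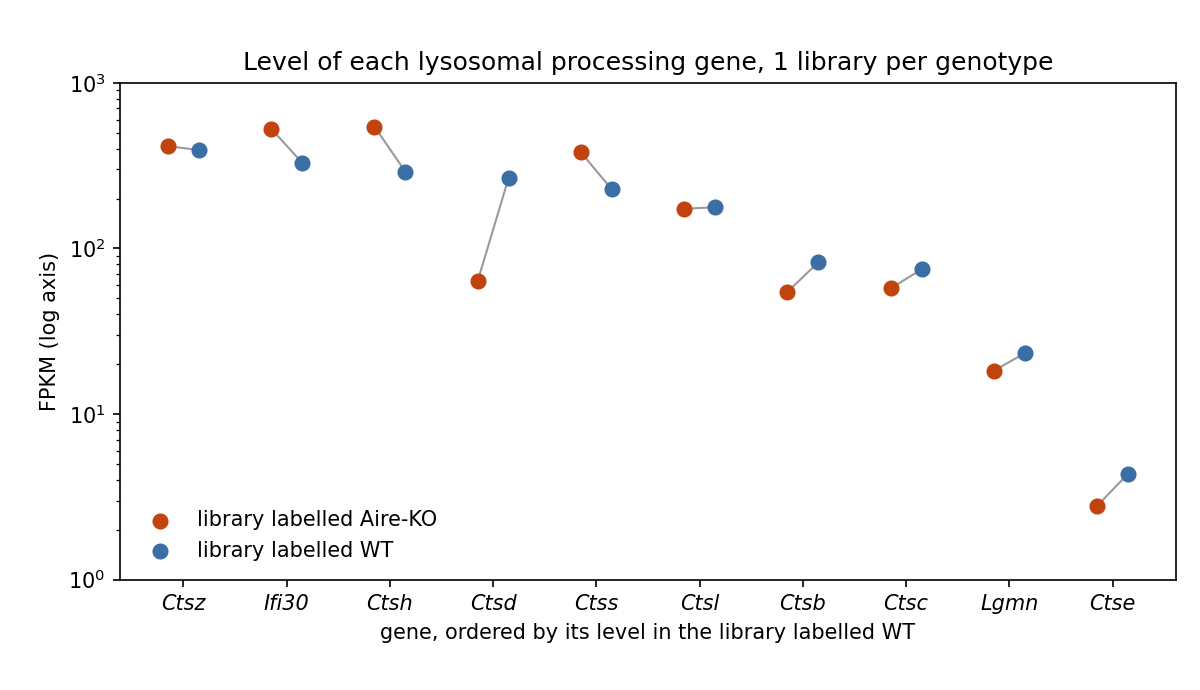
FPKM (log axis) of each of the 10 genes, with the Aire-KO-labelled library as the left point and the WT-labelled library as the right point of each pair. Ctsd has the steepest line, at 63.5 FPKM in the Aire-KO-labelled library and 266.6 FPKM in the WT-labelled library, and Ctsl and Ctsz have nearly flat ones.

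Promoters of 3 members are shown, those of the member that was lower and of 2 of the 3 members with the highest ratios. They were read from RefSeq (GRCm38.p6), whose promoter table held 7 of the 10 genes (not Ctsb, Ctse and Ctsh). Each is the 250 bases before the start, 5′ to 3′ on the gene's strand. They lie at chr7:142387828-142388077 (minus strand) for Ctsd, chr3:95526536-95526785 (plus strand) for Ctss and chr8:70766664-70766913 (minus strand) for Ifi30. Capitals mark matches, on either strand, to the motifs described after the sequences.
Ctsd: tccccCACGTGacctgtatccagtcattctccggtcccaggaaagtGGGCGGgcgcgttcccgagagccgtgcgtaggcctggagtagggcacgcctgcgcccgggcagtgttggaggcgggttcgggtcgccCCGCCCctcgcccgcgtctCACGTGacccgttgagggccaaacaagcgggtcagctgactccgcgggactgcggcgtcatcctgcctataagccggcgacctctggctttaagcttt
Ctss: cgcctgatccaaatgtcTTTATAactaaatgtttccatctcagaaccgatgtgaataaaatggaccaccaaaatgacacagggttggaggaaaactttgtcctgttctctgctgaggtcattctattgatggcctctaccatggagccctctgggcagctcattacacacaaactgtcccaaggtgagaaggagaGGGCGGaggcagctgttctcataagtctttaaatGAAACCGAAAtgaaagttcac
Ifi30: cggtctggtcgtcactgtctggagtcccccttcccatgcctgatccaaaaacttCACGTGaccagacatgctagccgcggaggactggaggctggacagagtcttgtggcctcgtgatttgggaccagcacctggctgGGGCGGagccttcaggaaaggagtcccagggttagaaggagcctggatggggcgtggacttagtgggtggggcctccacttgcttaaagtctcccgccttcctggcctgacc

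CACGTG is the core of the element through which TFEB and related factors bind lysosomal genes. It was found in 3 of the 7 member promoters (Ctsl, Ctsd and Ifi30), against 6.05% of 27025 promoters of the same length. The bases after the listed start of Ctsl were found in no GENCODE transcript of that gene, so its window is less certain. The Ctsd promoter held 2 copies, with first bases at -245 and -98 counted from the gene's start, and the Ifi30 promoter 1 copy at -196. Ctss held none in this window. The interferon-stimulated element, searched as GAAA repeated after any 2 bases, was found in Ctss and in no other of the 7, at -21, against 3.04% of all promoters. The GC box GGGCGG was found in 6 of the 7 and in 32.9% of all promoters. CCAAT was found in 2 (34.5% of all), TATAAA in 1 (13% of all), TTCNNNGAA in 1 (7.18% of all) and CCGGAAG in none (7.05% of all). These are matches of letters and not shown sites. Tfeb stood at 10.4 FPKM in the Aire-KO-labelled library and 12.5 FPKM in the WT-labelled library, and Tfe3 at 23.2 FPKM in the Aire-KO-labelled library and 20.8 FPKM in the WT-labelled library. None of the 4 measured genes of the lysosome regulator list passed the 2-fold rule, beside 72.4% neither of all measured genes.

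Ctsd, on chromosome 7 (142375910 to 142387827, GRCm38.p6, the build also called mm10), encodes cathepsin D, the main aspartic endopeptidase of lysosomes. It stood at 63.5 FPKM in the Aire-KO-labelled library, against 266.6 FPKM in the WT-labelled library. Among the 10 levels it was the 6th in the Aire-KO-labelled library and the 4th in the WT-labelled library. Its log2 ratio was -2.07, 4.20-fold lower in the Aire-KO-labelled library. The 95% counting interval of the ratio without a pseudocount was -2.11 to -2.03, from about 6690 fragments in the Aire-KO-labelled library and 24600 in the WT-labelled library. Such intervals cover counting error only. In the authors' deposited table Ctsd had p of 0.0053 and q of 0.194, which compare these 2 libraries and not the genotypes. The q of the other 9 genes in the authors' deposited table lay between 0.786 for Ctsh and 0.999 for Ctsl.

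At the level of Ctsd, lower calls were rarer than over all genes. When only the 1922 genes averaging at least 50 FPKM were taken, a limit chosen after the values were seen, 10.7% were lower and 7.86% were higher. In that set the ratio of Ctsd was the 111th from the lowest. Its nearest gene over both libraries, by distance in log2 FPKM, was Oit1, at 53.5 FPKM in the Aire-KO-labelled library and 285.2 FPKM in the WT-labelled library, and no gene lay within 0.25. Distance over 2 libraries is a weak measure of likeness. In bulk RNA, fewer cells that express a gene and less RNA per cell cannot be told apart.

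Markers of dendritic cells and macrophages, which also express cathepsin D, were mostly lower in the Aire-KO-labelled library too, though not all. Of 20 such genes 17 were measured, 13 were lower, none was higher and 4 were neither (Zbtb46, Batf3, Lyz2 and Fcer1g). Over all measured genes 20.5% were lower. The markers' median log2 ratio was -1.89. Their summed level was 592.2 FPKM in the Aire-KO-labelled library and 893.0 FPKM in the WT-labelled library, most of it Lyz2 at 436.4 FPKM in the Aire-KO-labelled library and 675.5 FPKM in the WT-labelled library. The 4 that were neither did not share a direction. Fcer1g stood at 87.2 FPKM in the Aire-KO-labelled library and 60.2 FPKM in the WT-labelled library, and Batf3 at 28.2 FPKM in the Aire-KO-labelled library and 16.4 FPKM in the WT-labelled library, both with ratios above 0. Zbtb46 had a log2 ratio of 0.71. Apart from Cd209a, the lower genes ran from a log2 ratio of -3.74 for Itgam to -1.02 for Mrc1. Among them Csf1r stood at 2.75 FPKM in the Aire-KO-labelled library and 6.77 FPKM in the WT-labelled library, and Flt3 at 0.915 FPKM in the Aire-KO-labelled library and 2.20 FPKM in the WT-labelled library. Itgax had a log2 ratio of -2.45. Itgam stood at 0.614 FPKM in the Aire-KO-labelled library and 9.40 FPKM in the WT-labelled library, Spi1 at 0.682 FPKM in the Aire-KO-labelled library and 8.29 FPKM in the WT-labelled library, and Adgre1 (listed as Emr1) at 0.312 FPKM in the Aire-KO-labelled library and 4.63 FPKM in the WT-labelled library. Cd209a was listed at 0 in the Aire-KO-labelled library, against 2.91 FPKM in the WT-labelled library. Ptprc, another of the lower markers, stood at 0.626 FPKM in the Aire-KO-labelled library and 1.95 FPKM in the WT-labelled library. Ctss, the cathepsin that cuts the invariant chain in dendritic cells, had a log2 ratio of 0.74, on the other side of 0 from Ctsd. The part of dendritic cells and macrophages in the difference of Ctsd, or of any other member, was not tested.

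Ctse, on chromosome 1 (131638314 to 131675507), encodes cathepsin E, an endosomal aspartic protease of immune cells and stomach. It stood at 2.78 FPKM in the Aire-KO-labelled library and 4.35 FPKM in the WT-labelled library, the lowest level of the set in both libraries. Its log2 ratio was -0.63 (counting interval -0.87 to -0.43, about 293 and 402 fragments in the Aire-KO and WT libraries). Ctsd exceeded Ctse 22.8-fold in the Aire-KO-labelled library and 61.2-fold in the WT-labelled library. The aspartic pair together made up 2.96% of the summed FPKM of the 10 genes in the Aire-KO-labelled library and 14.5% in the WT-labelled library.

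**Figure D2:**
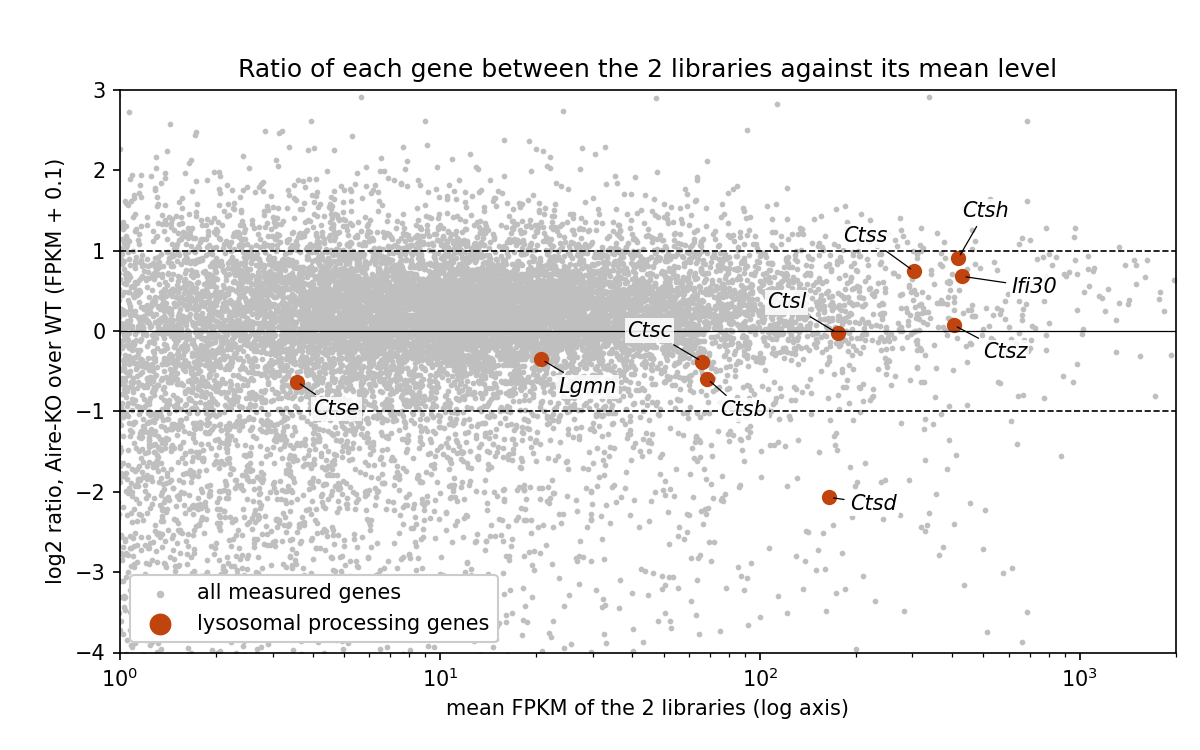
Log2 ratio, Aire-KO over WT, against mean FPKM (log axis) for measured genes (grey) and the 10 genes (orange), with dashed lines at the 2-fold limits. 2067 of the 15906 measured genes lie outside the axes. Ctsd lies below the lower line at -2.07, and Ctsh, Ctss and Ifi30 lie between 0 and the upper line at 0.90, 0.74 and 0.68.

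Among the cysteine endopeptidases, Ctss and Ctsl differed in ratio. Ctss, on chromosome 3 (95526786 to 95556405), encodes cathepsin S, and stood at 380.2 FPKM in the Aire-KO-labelled library and 227.0 FPKM in the WT-labelled library, a log2 ratio of 0.74 (0.71 to 0.78). Ctsl, on chromosome 13 (64361890 to 64370772), stood at 173.6 FPKM in the Aire-KO-labelled library and 177.2 FPKM in the WT-labelled library, a log2 ratio of -0.03 (-0.06 to 0.00). Within a library, where scaling plays no part, Ctss was 2.19 times Ctsl in the Aire-KO-labelled library and 1.28 times Ctsl in the WT-labelled library. Ctss had 2 listed isoforms, and NM_021281 made up 90.5% of the gene in each library. The other isoform, NM_001267695, had 36.1 FPKM in the Aire-KO-labelled library and 21.6 FPKM in the WT-labelled library. Each of the other 9 genes had 1 isoform, whose value equals that of the gene.

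The other cysteine endopeptidases had ratios below 0. Ctsb, on chromosome 14 (63122462 to 63145923), encodes cathepsin B, which cuts within proteins and also removes dipeptides from their C-terminal ends. It stood at 54.6 FPKM in the Aire-KO-labelled library and 82.4 FPKM in the WT-labelled library, a log2 ratio of -0.59 (-0.63 to -0.56). Lgmn, on chromosome 12 (102394082 to 102439728), encodes legumain, which cuts after asparagine and helps to mature other cathepsins. It stood at 18.2 FPKM in the Aire-KO-labelled library and 23.3 FPKM in the WT-labelled library, a log2 ratio of -0.35 (-0.45 to -0.26). Neither passed the 2-fold rule. Ctsb was 0.860 times Ctsd in the Aire-KO-labelled library and 0.309 times Ctsd in the WT-labelled library.

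The exopeptidases, which trim peptide ends, were led by Ctsh in the Aire-KO-labelled library and by Ctsz in the WT-labelled library. Ctsh, on chromosome 9 (90054267 to 90076095), encodes an aminopeptidase and stood at 543.6 FPKM in the Aire-KO-labelled library, against 290.4 FPKM in the WT-labelled library. That was the highest level of the set in the Aire-KO-labelled library and the third in the WT-labelled library. Its log2 ratio of 0.90 (0.88 to 0.93) was the highest of the 10, and lay above that of 91.0% of all measured genes. Ctsz, on chromosome 2 (174427494 to 174439039), encodes a carboxypeptidase and stood at 414.0 FPKM in the Aire-KO-labelled library and 392.9 FPKM in the WT-labelled library, a log2 ratio of 0.08 (0.05 to 0.10). With the libraries rescaled to the same upper quartile, the ratio of Ctsz was -0.09, so no direction is given for it. Ctsc, on chromosome 7 (88278024 to 88315861), encodes dipeptidyl peptidase I, which activates serine proteases of granules. It stood at 57.4 FPKM in the Aire-KO-labelled library and 74.7 FPKM in the WT-labelled library, a log2 ratio of -0.38 (-0.43 to -0.33).

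Ifi30, on chromosome 8 (70762773 to 70766663), encodes the interferon-inducible lysosomal reductase that opens disulfide bonds so that proteases can reach the chain. It stood at 527.6 FPKM in the Aire-KO-labelled library and 328.9 FPKM in the WT-labelled library, a log2 ratio of 0.68. It ranked second of the set in both libraries. The Aire-KO over WT ratios of Ctsh, Ctss and Ifi30 were 1.87, 1.67 and 1.60, short of the 2-fold rule. At a limit of 1.5-fold, 3 members were higher (these 3; background 19.3%) and 3 lower (Ctsd, Ctsb and Ctse; background 26.8%). The gene nearest to Ctss over both libraries was Klf6, at 390.4 FPKM in the Aire-KO-labelled library and 225.7 FPKM in the WT-labelled library. That nearest to Ctsh was Icam1, at 495.6 FPKM in the Aire-KO-labelled library and 302.7 FPKM in the WT-labelled library.

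The order of the 10 levels differed between the libraries mainly in Ctsh, Ctsz and Ctsd, each 2 places apart. In the Aire-KO-labelled library the order was Ctsh, Ifi30, Ctsz, Ctss, Ctsl, Ctsd, Ctsc, Ctsb, Lgmn and Ctse. In the WT-labelled library it was Ctsz, Ifi30, Ctsh, Ctsd, Ctss, Ctsl, Ctsb, Ctsc, Lgmn and Ctse. No spread between libraries of a genotype can be measured, so the order of close neighbours, such as Ctsh and Ifi30 in the Aire-KO-labelled library or Ctsh and Ctsd in the WT-labelled library, is not resolved. In the Aire-KO-labelled library, Ctsd made up 2.84% of the summed level of the 10 genes, against 14.3% in the WT-labelled library. Ctsh, Ctss and Ifi30 together made up 64.9% in the Aire-KO-labelled library and 45.3% in the WT-labelled library. The 4 cysteine endopeptidases together made up 28.0% in the Aire-KO-labelled library and 27.3% in the WT-labelled library, with a larger share of Ctss beside smaller shares of Ctsl, Ctsb and Lgmn.

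**Figure D3:**
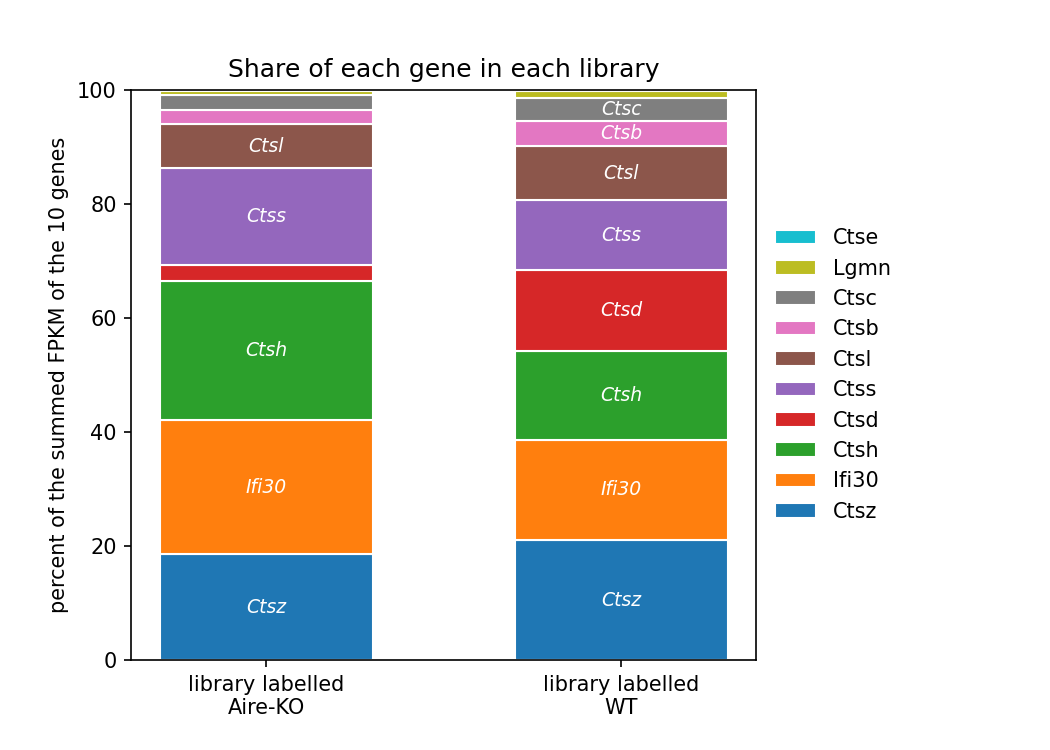
Percent of the summed FPKM of the 10 genes taken by each gene, with the Aire-KO-labelled library as the left bar and the WT-labelled library as the right bar. The Ctsd segment is 2.84% in the Aire-KO-labelled library and 14.3% in the WT-labelled library, and that of Ctsh is 24.3% in the Aire-KO-labelled library and 15.5% in the WT-labelled library.

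In the RefSeq annotation Ctsb overlaps Fdft1, and Ctsz overlaps Nelfcd. Ctss also overlaps the pseudogene Hmgb1-ps5, and Ifi30 overlaps the long non-coding RNA gene 6330537M06Rik, and neither of these had a level. Fdft1 stood at 18.7 FPKM in the Aire-KO-labelled library and 15.6 FPKM in the WT-labelled library, and Nelfcd at 22.0 FPKM in the Aire-KO-labelled library and 17.4 FPKM in the WT-labelled library. Whether the strand was used in counting is not stated in these sources, so reads from shared stretches cannot be assigned. Fdft1 and Nelfcd were each below the member they overlap in each library, and the overlaps of Ctss and Ifi30 could not be compared.

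The partners of the 10 genes were then taken by role. Of 16 other cathepsins and peptidases, 3 were lower, none higher and 13 neither, beside 20.5% lower and 7.09% higher of all measured genes. The list's median was -0.14 on the log2 scale. Ctsa, the protective protein and carboxypeptidase of lysosomes, stood at 25.1 FPKM in the Aire-KO-labelled library and 66.0 FPKM in the WT-labelled library. Napsa, an aspartic protease best known from lung and kidney, stood at 8.70 FPKM in the Aire-KO-labelled library and 25.1 FPKM in the WT-labelled library. Ctsg, a serine protease of neutrophil granules, was listed at 0 in the Aire-KO-labelled library, against 1.82 FPKM in the WT-labelled library. The most expressed of this list were Rnpep (62.9 FPKM in the Aire-KO-labelled library, 63.3 FPKM in the WT-labelled library) and Scpep1 (53.3 FPKM in the Aire-KO-labelled library, 38.6 FPKM in the WT-labelled library).

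The genes listed as cathepsin inhibitors, taken by family, were mostly lower in the Aire-KO-labelled library. Whether each product inhibits cathepsins was not checked, so the counts describe gene families and not inhibition. Of 23 cystatins, stefins and other listed inhibitors, 19 were measured, 18 were lower and 1 was neither. Over all measured genes 20.5% were lower. The list's median was -3.85 on the log2 scale. Cst3, cystatin C, the main secreted inhibitor, stood at 385.2 FPKM in the Aire-KO-labelled library and 835.5 FPKM in the WT-labelled library. Cst6, another secreted cystatin, stood at 31.3 FPKM in the Aire-KO-labelled library and 102.7 FPKM in the WT-labelled library. Cst8 and Stfa1 were listed at 0 in the Aire-KO-labelled library, against 11.0 FPKM for Cst8 and 8.18 FPKM for Stfa1 in the WT-labelled library. Serpinb3a stood at 0.114 FPKM in the Aire-KO-labelled library and 9.13 FPKM in the WT-labelled library, and Csta1 at 0.691 FPKM in the Aire-KO-labelled library and 2.35 FPKM in the WT-labelled library. The exception was Cstb, the cytosolic stefin B, at 1036 FPKM in the Aire-KO-labelled library and 1014 FPKM in the WT-labelled library. Stefins and serpins are families of close copies that share reads, so single values within them are uncertain.

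Class II genes had ratios on the other side of 0. Of 11 chain and loading genes 10 were measured, 3 were higher and 7 neither, beside 7.09% higher of all measured genes. The median of the 10 class II genes was 0.52 on the log2 scale, and all 10 ratios were above 0 under each scaling tried. As deposited, the median was 0.05 for all measured genes and 0.19 for the 1922 genes averaging at least 50 FPKM. The share of all genes with ratios above 0 was not counted. H2-Ob, a chain of the loading modulator DO, stood at 85.1 FPKM in the Aire-KO-labelled library and 39.3 FPKM in the WT-labelled library. H2-Eb2 stood at 427.9 FPKM in the Aire-KO-labelled library and 204.1 FPKM in the WT-labelled library, and the pseudogene H2-Ea-ps at 2.38 FPKM in the Aire-KO-labelled library and 0.426 FPKM in the WT-labelled library. The most expressed were H2-Aa (11948 FPKM in the Aire-KO-labelled library, 8398 FPKM in the WT-labelled library) and H2-Ab1 (10067 FPKM in the Aire-KO-labelled library, 7283 FPKM in the WT-labelled library). Cd74, the invariant chain that these proteases cut, had no estimate. Of 9 measured class II regulators 2 were higher, Ciita at 100.7 FPKM in the Aire-KO-labelled library and 48.1 FPKM in the WT-labelled library and Creb1 at 12.4 FPKM in the Aire-KO-labelled library and 4.98 FPKM in the WT-labelled library. With the libraries rescaled to the same sum, H2-Eb2 and Ciita no longer passed the 2-fold rule, at 0.992 and 0.990 on the log2 scale.

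Over 5 lists of the wider lysosome (other peptidases, membrane proteins, proton pump, other hydrolases and sorting), 103 genes were measured, of which 10 (9.7%) were lower and 2 (1.9%) higher, beside 20.5% lower and 7.09% higher of all measured genes. Their median log2 ratio was -0.06. Of the 29 with a mean of 50 FPKM or more none was lower and 1 was higher (Arsb, 1.56), beside 10.7% lower and 7.86% higher of all genes at that level. The lowest log2 ratio among the 29 was that of Atp6v1e1 at -0.61. Ctsa, which was lower at -1.39, lay just under that minimum with a mean of 45.6 FPKM, and the minimum was chosen after the values were seen.

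Single genes within these lists passed the 2-fold rule, beside 20.5% lower and 7.09% higher of all measured genes. Of 18 membrane proteins 1 was lower, Laptm4b (20.6 FPKM in the Aire-KO-labelled library, 42.6 FPKM in the WT-labelled library), and Laptm5 and Lamp1 were the most expressed. Laptm5 stood at 603.3 FPKM in the Aire-KO-labelled library and 337.5 FPKM in the WT-labelled library, and Lamp1 at 282.1 FPKM in the Aire-KO-labelled library and 271.6 FPKM in the WT-labelled library. Of 21 proton pump genes, whose products acidify the lysosome, 4 were lower, which is not above the 20.5% of all measured genes. Atp6v1b1, the kidney-type subunit, stood at 0.147 FPKM in the Aire-KO-labelled library and 3.87 FPKM in the WT-labelled library, Atp6v0d2 at 0.0633 FPKM in the Aire-KO-labelled library and 1.55 FPKM in the WT-labelled library, Atp6v1c2 at 1.20 FPKM in the Aire-KO-labelled library and 9.88 FPKM in the WT-labelled library, and Atp6v0e2 at 13.9 FPKM in the Aire-KO-labelled library and 29.5 FPKM in the WT-labelled library. The most expressed pump genes, Atp6v0e (431.6 FPKM in the Aire-KO-labelled library, 483.3 FPKM in the WT-labelled library) and Atp6v1f (233.8 FPKM in the Aire-KO-labelled library, 245.2 FPKM in the WT-labelled library), were neither. The pump list was not complete, and counts over it cover the listed genes only. Left out of it were the measured genes Atp6v1g3 and Atp6v0a4, with log2 ratios of -1.50 and -0.91.

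Of 31 other hydrolases and their helpers, 2 were lower and 1 higher, beside 20.5% lower and 7.09% higher of all measured genes. Gm2a, the GM2 activator, stood at 2.48 FPKM in the Aire-KO-labelled library and 29.7 FPKM in the WT-labelled library, and Acp5, the acid phosphatase of osteoclasts, at 3.13 FPKM in the Aire-KO-labelled library and 17.8 FPKM in the WT-labelled library. Arsb, which encodes arylsulfatase B, stood at 157.0 FPKM in the Aire-KO-labelled library and 53.3 FPKM in the WT-labelled library. Npc2 (872.2 FPKM in the Aire-KO-labelled library, 672.3 FPKM in the WT-labelled library) and Psap (693.7 FPKM in the Aire-KO-labelled library, 501.7 FPKM in the WT-labelled library) were the most expressed. Of 17 sorting genes 1 was higher, the adaptor gene Gga3 (51.0 FPKM in the Aire-KO-labelled library, 22.7 FPKM in the WT-labelled library). M6pr, the receptor that carries new hydrolases to the lysosome, stood at 113.1 FPKM in the Aire-KO-labelled library and 76.0 FPKM in the WT-labelled library, and Ap1m2 at 107.1 FPKM in the Aire-KO-labelled library and 96.6 FPKM in the WT-labelled library.

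**Figure D4:**
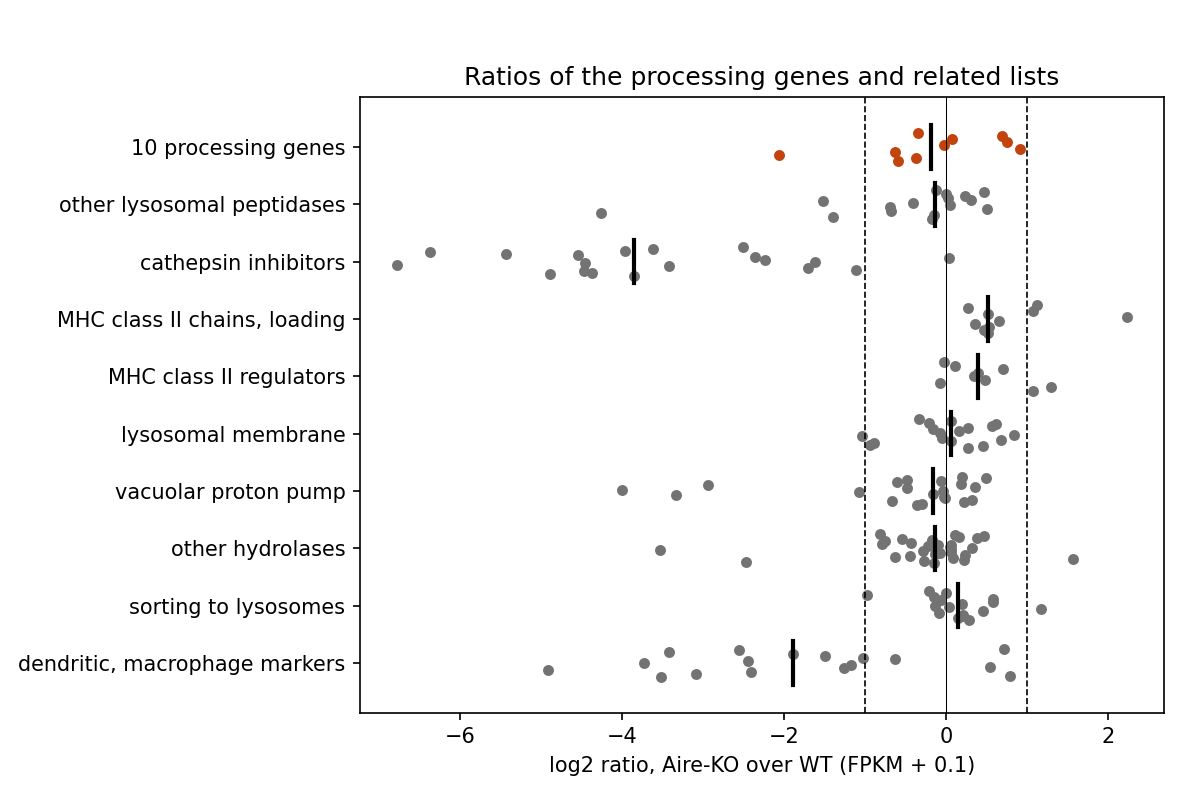
Log2 ratio, Aire-KO over WT, of each measured gene (points) in the 10 processing genes and 9 related lists, with the list median as a thick bar and dashed lines at the 2-fold limits. The genes listed as inhibitors (median -3.85) and the dendritic cell and macrophage markers (median -1.89) lie mostly left of the lower limit, and the class II genes (median 0.52) lie right of 0.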

How the data were processed

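RNA was measured in 2 libraries of sorted mTECs, 1 per genotype. The deposited values are FPKM per gene and per isoform, made with TopHat2 and Cuffdiff on mm10, per the submitters' processing notes. The sources used here give no version, annotation release or scaling. The authors' p-value and q-value are quoted only as theirs. Libraries came from a stranded poly-A kit, per the labels' protocols. Every sample column of the tables was used.

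Rows that the authors' tool left without an estimate for high coverage (5 genes, Cd74 among them) were set to missing, and 27 symbols turned into dates were recovered from their position in RefSeq. Coordinates are those of RefSeq genes (GRCm38.p6). Log2 ratios add a pseudocount of 0.1, which understates changes of low genes. Values listed at 0 can be failed estimates. Depth was fitted from low values (up to 5 fragments) of single-isoform genes of at least 2000 bp, where FPKM times length, less 210 bp and 200 bp in the Aire-KO and WT libraries, fell near whole numbers. Of these values 78.5% in the Aire-KO and 76.6% in the WT library lay within 0.1 of one, with the step fitted to the same values. Counting intervals are exact conditional binomial intervals from these approximate fragments, for 9 of the 10 members. Ifi30 had no transcript length.

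The 10 members and all lists were chosen with earlier results of these data known. Genes were named by rule (the members, Aire, list genes past 2-fold, or the 3 lowest and 3 highest of more than 6, the most expressed of each list, and the nearest gene of 3 members). For marker lists the rule was the most expressed and the defining genes. It was not followed in full, since no levels were printed for the B cell, thymocyte, and fibroblast and endothelial lists. Which markers to print as defining was chosen after their values were seen. So were Tfeb and Atp6v1e1. Scripts ran in Python 3.11.15 with pandas 2.3.3, numpy 2.4.6 and SciPy 1.17.1. The calls and the depth fit were run on simulated data with counting noise only and changes well past the 2-fold limit. That run checks the code, and it holds no spread between libraries or animals. Alternatives were 2 other pseudocounts, 3 rescalings, 2 other minimums, a 1.5-fold rule and summed isoforms.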

Additional observations from a re-analysis of the deposited data

How the results depend on the processing

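Ctsd alone was lower among the members, and none was higher, under each pseudocount, rescaling and minimum tried and with summed isoforms. Its log2 ratio ranged from -2.24 (same upper quartile) to -2.05 (pseudocount of 1). With a 1.5-fold rule 3 members were lower (Ctsd, Ctsb and Ctse) and 3 higher (Ctsh, Ctss and Ifi30), beside 26.8% lower and 19.3% higher of all genes. The members' median of -0.19 moved to -0.36 with the same upper quartile, which moved the median of all genes to -0.11. Of 60 member values under the alternatives 59 kept their sign, and Ctsz did not (-0.09 with the same upper quartile). The calls of H2-Eb2, H2-Ob, Ciita and Gga3 depended on the rescaling, and that of H2-Ob was lost at 0.944. Cln3, Ctns, Sort1, Col1a1 and Cldn4 became lower under at least 1 rescaling, and the higher call of the B cell marker Pax5 was lost with the same upper quartile (0.937). Over all genes 3260 were lower and 1128 higher, against 1804 lower with a minimum of 2 FPKM, 5180 lower with none, 701 higher with a pseudocount of 1, 725 higher with the same upper quartile and 3065 higher with the 1.5-fold rule. In the other lists 29 genes were lower and 7 higher, against 3 higher with the same upper quartile and 42 lower and 12 higher with the 1.5-fold rule. No paired analysis was possible because each genotype has 1 library, and for the same reason no library could be left out. Counting intervals were had for 9 members, not Ifi30, and were widest for Ctse. The lack of replicates limits every statement.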

Other observations

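Cathepsins known from mouse placenta, which form a cluster of close copies, were barely detected. Listed at 0 were 8 of 9 such genes in the Aire-KO-labelled library and 1 in the WT-labelled library, and 8 were below the minimum of 0.5 FPKM. The share of all genes listed at 0 was not counted, so the 2 counts are not read as particular to these genes. With no minimum, 5180 of 23992 genes were lower and 1350 higher. Ctsj passed the minimum, at 0 in the Aire-KO-labelled library and 2.22 FPKM in the WT-labelled library. Values of these copies depend on how shared reads were split.

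Autophagy, which delivers cytosolic proteins to the lysosome in thymic epithelium, showed no call in either direction among 16 measured genes, with a median log2 ratio of -0.04. Over all measured genes 72.4% were neither, a share that includes genes of low level. With a minimum of 2 FPKM, which all 16 passed, 1804 of 12611 genes were lower and 876 higher. Gabarap stood at 504.3 FPKM in the Aire-KO-labelled library and 494.6 FPKM in the WT-labelled library, and Sqstm1, a cargo receptor, at 316.1 FPKM in the Aire-KO-labelled library and 312.6 FPKM in the WT-labelled library. Markers of other thymic cells were also counted. Of 8 B cell markers 1 was lower and 1 higher, of 12 measured thymocyte markers 3 were lower and 1 higher, of 9 measured fibroblast and endothelial markers 2 were lower and 2 higher, and of 9 cortical epithelial markers 2 were lower and none higher. Over all measured genes 20.5% were lower and 7.09% higher. The B cell and fibroblast counts depended on scaling, through Pax5 and Col1a1.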
